A study of Mus musculus with 8 samples.

Results

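The cyclins, kinases and inhibitors of G1 phase were followed in splenic B cells of leukemia-prone mice. They were set by symbol, with earlier results of these data known, as 10 of the 24902 symbols in the count matrix. These are the D-type cyclins Ccnd1, Ccnd2 and Ccnd3, their kinases Cdk4 and Cdk6, the E-type cyclins Ccne1 and Ccne2, the inhibitors Cdkn1b and Cdkn2c, and Rb1. All 10 had a value in every library and passed the filter on low counts. There was 1 library for each of 4 Eµ-PRMT5 mice, 3 double transgenic Eµ-PRMT5/TCL1 mice and a single Eµ-TCL1 mouse, all at early removal criteria (ERC), the point of illness at which animals are euthanized. Eµ-PRMT5 mice carry human PRMT5, an arginine methyltransferase, behind a mouse VH promoter and the IgH-µ enhancer, which drive it in immature and mature B cells. Eµ-TCL1 mice carry the human TCL1 oncogene and are a model of chronic lymphocytic leukemia (CLL), and Eµ-PRMT5/TCL1 mice carry both transgenes. The labels give the strain as C57BL/6N for all mice, whereas the methods place the Eµ-TCL1 mice on C57BL/6J. B cells were taken from the spleen by negative selection. Ages are not in the labels, and neither is the founder line of each mouse, although the title of Eµ-PRMT5 mouse 2 carries a name that the methods give to a founder. The titles of Eµ-PRMT5 mice 3 and 4 carry names under which the paper describes tissue sections. It reports large anaplastic lymphocytes and histiocytes under the name of mouse 3. Under that of mouse 4 it reports small lymphocytes in sheets, as in CLL. Whether sections and libraries come from the same animals is not stated. Every mouse carried a transgene and was diseased, and WT mice were not analysed here.

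In G1 phase a cell decides whether to copy its DNA. D-type cyclins bind CDK4 and CDK6 and start to phosphorylate the retinoblastoma protein, the product of Rb1, which holds back the E2F transcription factors. E2F factors then raise E-type cyclins, which with CDK2 complete the phosphorylation and open S phase. Cdkn2c encodes p18, which binds CDK4 and CDK6, and Cdkn1b encodes p27, which restrains cyclin E complexes. Cyclin D2 and cyclin D3 are the D-type cyclins known for their roles in lymphocytes.

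The libraries held between 3356297 counts on genes (Eµ-TCL1) and 10252426 (Eµ-PRMT5 mouse 4). Eµ-PRMT5 mouse 4 stood apart from the other 7 mice before any G1 gene was considered. Its 6 B cell markers summed to 1871 CPM (counts scaled to library size, with TMM normalization for library composition), against 3416 to 8449 CPM in the others. Its 18 S phase genes summed to 7890 CPM against 1190 to 4046 CPM, its 12 G2/M genes to 4462 CPM against 199.5 to 1544 CPM, and its 5 measured erythroid markers to 324.5 CPM against 18.2 to 253.1 CPM. No B cell marker had a count of 0 in any library. In bulk samples fewer cells of a type and less RNA per cell cannot be told apart. Values without this mouse are given beside results that it moved, and those for gene lists were computed after the data had been seen.

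Compared per length, Cdk4 was the most abundant of the 10 genes in every mouse and Ccnd1 the least abundant. RPKM (CPM per kilobase of annotated exon) had a median over the 8 mice of 87.8 for Cdk4, 43.9 for Ccnd2, 14.4 for Ccnd3 and 11.4 for Ccne1. Lower medians were 5.72 for Rb1, 4.09 for Ccne2, 3.23 for Cdkn2c, 2.75 for Cdk6, 2.44 for Cdkn1b and 0.338 for Ccnd1. Between Cdk4 and Ccnd1 the order of neighbours changed from mouse to mouse, with Ccnd2 at rank 2 to 3, Ccnd3 at 3 to 5, Ccne1 at 2 to 6 and Rb1 at 4 to 8. Cdk6 ran from 1.32 to 7.78 RPKM, Cdkn1b from 1.42 to 7.85 RPKM and Cdkn2c from 0.424 to 11.6 RPKM.

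Cdk4, the kinase partner that dominated in every mouse, lies on chromosome 10 of GRCm38 from 127063534 to 127067920 on the plus strand. The 250 bases before its RefSeq start (chr10:127063285-127063534, plus strand, GRCm38.p6) are shown because they held 4 copies of CACGTG, the E-box word that MYC and related factors can bind, here in capitals.
Cdk4 upstream: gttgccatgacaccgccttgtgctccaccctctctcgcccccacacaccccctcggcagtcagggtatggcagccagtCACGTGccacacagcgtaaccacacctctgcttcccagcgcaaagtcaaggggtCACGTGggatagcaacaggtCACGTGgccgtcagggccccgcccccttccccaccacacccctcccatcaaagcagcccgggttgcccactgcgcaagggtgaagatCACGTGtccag
CACGTG reads the same on both strands. Among 32851 RefSeq windows of 300 bases around gene starts, 7.15% held at least 1 copy and 0.0244% held 4 or more. Windows were found for 6 of the 10 members (8 windows, since Ccnd3 and Cdkn2c have more than 1 start), and 3 of the 8 held a copy. This was the second of 2 searches, chosen after the first had been run and after the windows had been read. The first used the E2F words TTTCCCGC, TTTCGCGC, TTTGCCGC and TTTGGCGC on both strands, which 0 of the 8 member windows and 2.26% of all windows held. A match describes letters in the window and not a bound site.

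The comparison with replicates in both groups set the G1 genes of mice with both transgenes against those of mice with PRMT5 alone. From separate cohorts, the paper gives a shorter median survival for the double transgenic animals than for those with PRMT5 alone. Age at ERC and course of disease may therefore go with genotype here, and their part was not tested. Of the 10 members, Ccnd2 alone differed at an unadjusted p under 0.05, and it was higher in the double transgenic mice. It was also the single member whose groups did not overlap. After adjustment over 13173 genes with edgeR's quasi-likelihood test, 0 members and 0 genes passed an adjusted p of 0.05. Over all genes, 126 (0.957%) were higher in the double transgenic mice at the unadjusted threshold of 0.05 and 160 (1.21%) were lower, and by DESeq2 4 genes passed the adjusted p, none of them a member. The median log2 fold change was 0.21 over the members and -0.09 over all genes tested. With Eµ-PRMT5 mouse 4 left out these medians were 0.81 and -0.075, with 3 members (Ccnd2, Ccne1 and Cdkn2c) higher at an unadjusted p under 0.05, as were 2.98% of all genes. Ccne1 and Cdkn2c had their highest values in that mouse, so leaving it out raises both differences in advance. Without Eµ-PRMT5/TCL1 mouse 1 the median over the members was -0.062.

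Ccnd2 encodes cyclin D2 and lies on chromosome 6 from 127125162 to 127152193 on the minus strand. It measured 268, 434, 393 and 264 CPM in Eµ-PRMT5 mice 1 to 4 and 559, 506 and 828 CPM in Eµ-PRMT5/TCL1 mice 1 to 3. Each double transgenic mouse was above each Eµ-PRMT5 mouse, a pattern that 1.35% of tested genes showed, while 1.59% showed the opposite and 0 members did. The log2 fold change was 0.89 (standard error 0.36, 1.86-fold, unadjusted p = 0.0274 and adjusted p = 1.00 by edgeR). On log2 CPM the two-sided exact permutation test gave p = 0.0571, where the smallest p that 35 splits allow is 0.0286. Without Eµ-PRMT5 mouse 4 the log2 fold change was 0.79 (unadjusted p = 0.0437 by edgeR). By edgeR the unadjusted p was above the threshold in the absence of Eµ-PRMT5 mouse 1 (unadjusted p = 0.0521, adjusted p = 1.00) or of Eµ-PRMT5/TCL1 mouse 3, whose Ccnd2 was the highest (unadjusted p = 0.145, adjusted p = 1.00).

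Ccnd3 encodes cyclin D3 and lies on chromosome 17 from 47505051 to 47599691. It was measured at 183, 100, 141 and 150 CPM in Eµ-PRMT5 mice 1 to 4 and at 314, 112 and 106 CPM in the double transgenic mice. The groups overlapped, and Eµ-PRMT5/TCL1 mouse 1 was far above the other 2 double transgenic mice. On the log2 scale the difference was 0.30 (standard error 0.42), and -0.40 without that mouse. The same mouse had the highest sum of 9 neutrophil markers (9166 CPM, with 423.5 to 5297 CPM in the other 7 mice), and the part of this in Ccnd3 was not tested.

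Ccnd1 encodes cyclin D1 and lies on chromosome 7 from 144929931 to 144939925. It was barely detected, with 2 to 27 counts in a library. Its levels were 2.03, 1.11, 0.456 and 1.15 CPM in Eµ-PRMT5 mice and 2.79, 1.14 and 4.15 CPM in double transgenic mice. Their log2 fold change of 1.16 had a standard error of 0.73, and the groups overlapped. Counting error alone spans much of these levels, as the 2 counts in Eµ-PRMT5 mouse 3 allow 0.0552 to 1.65 CPM (exact Poisson interval at 95%).

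**Figure D1:**
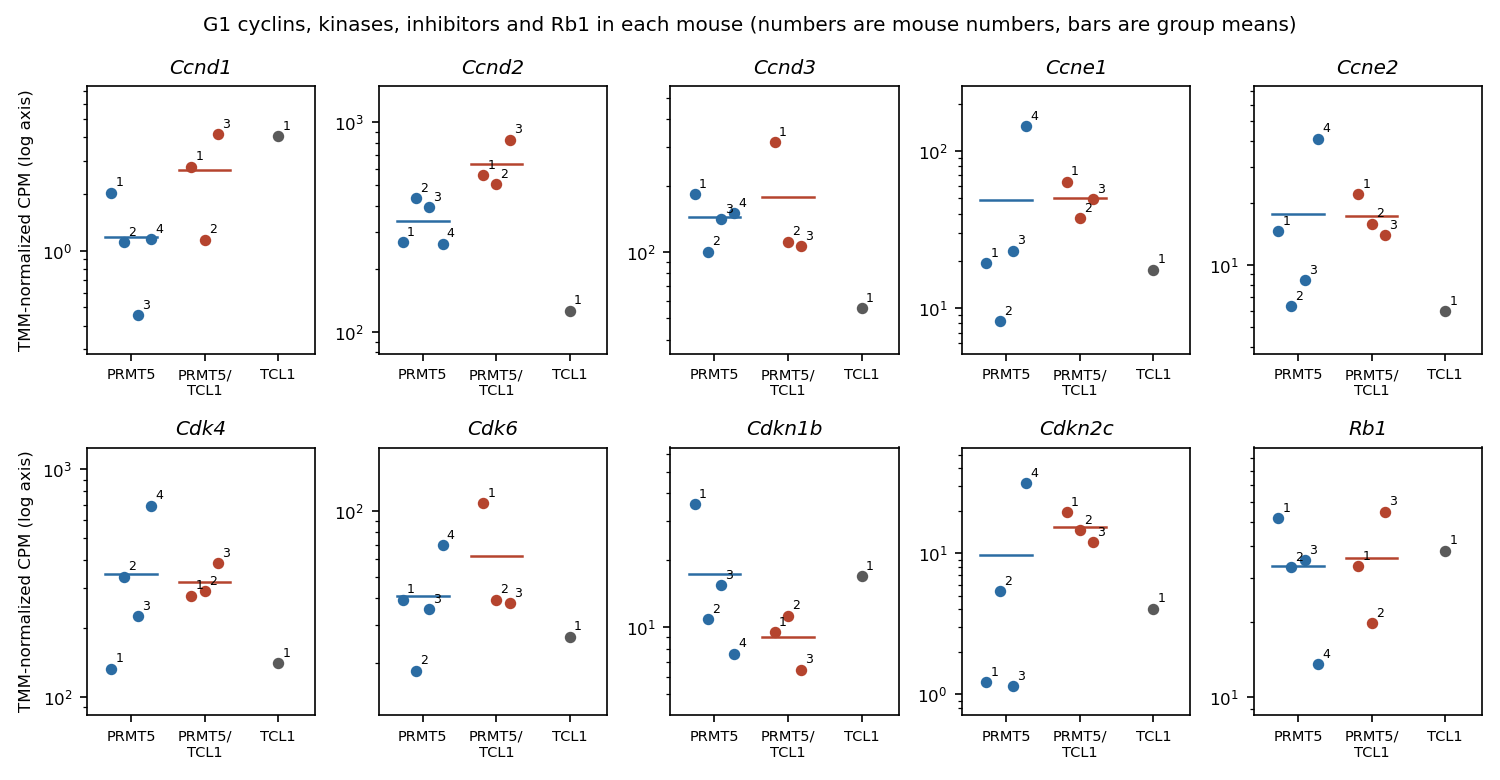
Each panel gives 1 gene, with TMM-normalized CPM on a log axis, a point for each mouse with its number, and a line at the mean of each group with more than 1 mouse. Ccnd2 is the panel in which the 3 double transgenic points (506 to 828 CPM) lie above all 4 Eµ-PRMT5 points (264 to 434 CPM), and Eµ-PRMT5 mouse 4 is far above its group for Ccne1 and Cdkn2c.

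Cyclin D2 was the main D-type cyclin transcript in all 8 mice. Of the summed RPKM of the 3 D-type cyclins, Ccnd2 made up 67.7% ± 10.2 (SD, n = 4) in Eµ-PRMT5 mice, 76.6% ± 13.02 (SD, n = 3) in Eµ-PRMT5/TCL1 mice and 65.2% in the Eµ-TCL1 mouse. The share varied within each genotype by more than it differed between them, from 57.2% to 79.8% in Eµ-PRMT5 mice and from 62.0% to 87.1% in double transgenic mice. Ccnd3 supplied nearly all of the rest, and Ccnd1 supplied 4.18% in the Eµ-TCL1 mouse and at most 0.872% in the others. The summed D-type RPKM was 52.7 ± 6.18 (SD, n = 4) in Eµ-PRMT5 mice, 87.9 ± 18.5 (SD, n = 3) in double transgenic mice and 20.6 in the Eµ-TCL1 mouse. These sums did not overlap between genotypes, of which Eµ-TCL1 is a single mouse, with 45.4 to 57.9 in Eµ-PRMT5 mice and 66.8 to 101.0 in double transgenic mice. Ccnd2 made up most of each sum and by itself did not overlap between Eµ-PRMT5 and double transgenic mice, whereas Ccnd3 overlapped. Of all tested genes, 1.35% had every double transgenic mouse above every Eµ-PRMT5 mouse, and 14.2% were lowest in the Eµ-TCL1 mouse. The sums are a description, and no test was run on them.

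**Figure D2:**
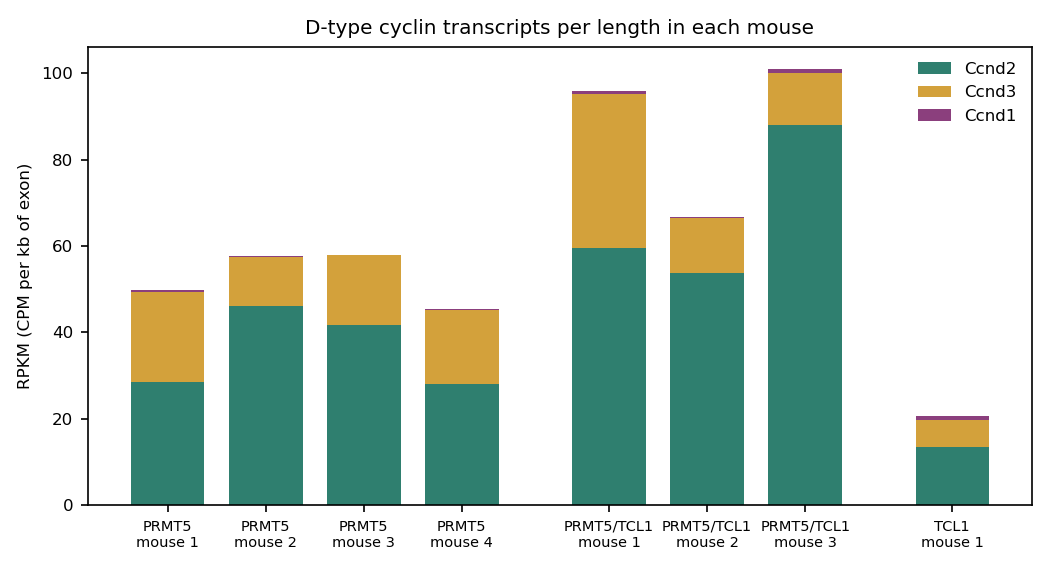
Stacked bars give the RPKM of Ccnd2, Ccnd3 and Ccnd1 in each of the 8 mice, on an axis that starts at 0. Ccnd2 is the largest segment in every bar, and the total runs from 20.6 in the Eµ-TCL1 mouse to 101.0 in Eµ-PRMT5/TCL1 mouse 3.

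The kinases did not separate the genotypes. Cdk4 measured 133, 338, 226 and 693 CPM in Eµ-PRMT5 mice and 279, 292 and 386 CPM in double transgenic mice. The Eµ-PRMT5 mice thus spanned the whole range of the double transgenic mice, and the log2 fold change was -0.13 (standard error 0.49). Without Eµ-PRMT5 mouse 4 it was 0.46 (standard error 0.38). Cdk6, on chromosome 5 from 3341485 to 3531008, measured 39.2, 18.5, 35.6 and 70.0 CPM in Eµ-PRMT5 mice and 109, 39.2 and 37.8 CPM in double transgenic mice. Its highest value was in Eµ-PRMT5/TCL1 mouse 1, the mouse with the highest Ccnd3 and the highest neutrophil markers, and the part of those cells was not tested. For Cdk6 the log2 fold change was 0.60 (standard error 0.50) with that mouse and -0.09 without it. Of the summed RPKM of both kinases, Cdk4 held 96.6% ± 2.22 (SD, n = 4) in Eµ-PRMT5 mice, 95.5% ± 3.31 (SD, n = 3) in double transgenic mice and 95.8% in the Eµ-TCL1 mouse. These shares depend on the annotated exon lengths (3249 bases for Cdk4 and 13989 for Cdk6). In CPM, without length, the means were 87.3%, 83.7% and 84.2%.

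The E-type cyclins differed more between Eµ-PRMT5 mice than between genotypes. Ccne1, on chromosome 7 from 38097984 to 38107534, measured 19.3, 8.23, 23.2 and 144 CPM in Eµ-PRMT5 mice 1 to 4, a 17.5-fold range. In double transgenic mice it measured 63.9, 37.6 and 49.3 CPM, each above Eµ-PRMT5 mice 1 to 3 and below mouse 4. Over all mice the log2 fold change was 0.04 (standard error 0.76). Without Eµ-PRMT5 mouse 4 it was 1.58 (standard error 0.46, unadjusted p = 0.00523 and adjusted p = 0.681 by edgeR). Ccne2, on chromosome 4 from 11191351 to 11204779, measured 14.6, 6.33, 8.43 and 41.2 CPM in Eµ-PRMT5 mice and 22.1, 15.9 and 14.0 CPM in double transgenic mice. Its log2 fold change was -0.03 (standard error 0.62), and 0.82 (standard error 0.51) without Eµ-PRMT5 mouse 4. Ccne1 was the larger E-type transcript per length in all 8 mice, with 71.7% ± 9.95 (SD, n = 4), 79.0% ± 3.29 (SD, n = 3) and 79.5% of the pair in the 3 genotypes.

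The inhibitors went in different directions from mouse to mouse. Cdkn2c, on chromosome 4 from 109660876 to 109667189, was close to its detection limit in Eµ-PRMT5 mice 1 and 3, with 6 and 5 counts. Its levels were 1.22, 5.38, 1.14 and 31.2 CPM in Eµ-PRMT5 mice 1 to 4 and 19.5, 14.6 and 11.98 CPM in double transgenic mice. As for Ccne1, the double transgenic mice lay between Eµ-PRMT5 mouse 4 and the other Eµ-PRMT5 mice. Over all mice the difference on the log2 scale was 0.63 (standard error 0.93), and it was 2.53 (standard error 0.70, unadjusted p = 0.00384 and adjusted p = 0.637 by edgeR) without mouse 4. In that fit without mouse 4, 0 of the genes tested passed the adjusted p, and the unadjusted threshold of 0.05 was met by 392 genes that were higher and 368 that were lower.

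Cdkn1b, on chromosome 6 from 134920401 to 134925513, measured 35.7, 10.9, 15.5 and 7.61 CPM in Eµ-PRMT5 mice and 9.51, 11.3 and 6.45 CPM in double transgenic mice. The groups overlapped, and Eµ-PRMT5 mouse 1 was the highest of all 8. The log2 fold change was -0.93 (standard error 0.59), and -0.29 without Eµ-PRMT5 mouse 1. Rb1, on chromosome 14 from 73183673 to 73325822, measured 51.7, 32.9, 35.3 and 13.6 CPM in Eµ-PRMT5 mice and 33.4, 19.7 and 55.0 CPM in double transgenic mice. Its lowest value was in Eµ-PRMT5 mouse 4, where Ccne1, Ccne2, Cdk4 and Cdkn2c had their highest. Rb1 had a fold change of 0.11 on the log2 scale (standard error 0.49).

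**Figure D3:**
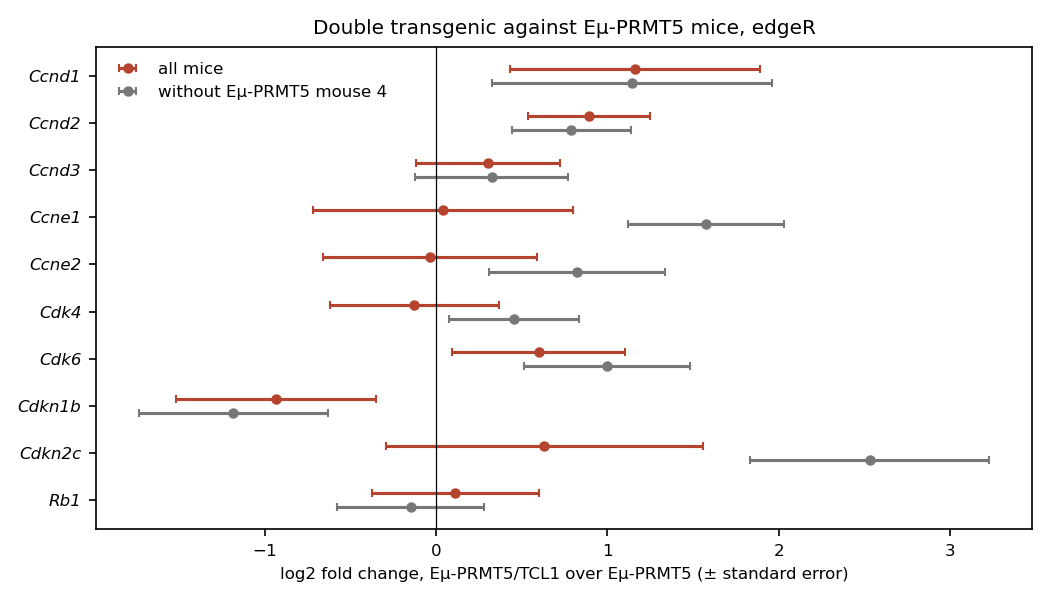
Points give the log2 fold change of each gene, Eµ-PRMT5/TCL1 over Eµ-PRMT5, and bars its standard error from edgeR, with all mice and without Eµ-PRMT5 mouse 4. Ccne1 moves from 0.04 to 1.58 and Cdkn2c from 0.63 to 2.53 when that mouse is left out, while Ccnd2 moves from 0.89 to 0.79.

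Of the other regulators of G1 and S phase entry, 26 of 29 listed genes were tested and 0 differed at an unadjusted p under 0.05 in edgeR. The nearest to it was E2f1, an E2F factor bound by the retinoblastoma protein, at 7.10, 3.48, 10.3 and 12.8 CPM in Eµ-PRMT5 mice and 22.1, 15.3 and 18.1 CPM in double transgenic mice. Its groups did not overlap, as for 1.35% of all tested genes in this direction. The log2 fold change of E2f1 was 1.14 (standard error 0.52, unadjusted p = 0.0505 and adjusted p = 1.00 by edgeR). Rbl2 encodes the pocket protein p130, and its log2 fold change was -0.57 (standard error 0.35). Fbxw7, part of the ligase that marks cyclin E for degradation, had one of -0.78 (standard error 0.51), and -0.056 without Eµ-PRMT5 mouse 1, whose level was the highest. E2f1 and Cks1b were higher at an unadjusted p under 0.05 by edgeR in the fit without Eµ-PRMT5 mouse 4. Both had their highest Eµ-PRMT5 level in that mouse, so leaving it out raises both differences in advance. E2f1 was also under this threshold by edgeR without Eµ-PRMT5 mouse 3 (unadjusted p = 0.0425, adjusted p = 0.769) and without the Eµ-TCL1 mouse (unadjusted p = 0.0460). In the remaining fits with 1 mouse left out its unadjusted p by edgeR was 0.0726 to 0.150.

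The S phase and G2/M lists depended on Eµ-PRMT5 mouse 4. With all mice, 0 of 18 S phase genes and 0 of 12 G2/M genes differed at an unadjusted p under 0.05, with median log2 fold changes of -0.049 and -0.12. Without that mouse, 14 of 18 and 11 of 12 were higher in double transgenic mice at this threshold, with medians of 1.25 and 1.68, while 2.98% of all genes were higher. That mouse had the highest sums of both lists, so leaving it out raises these differences in advance. The counts without it are therefore not a test of the lists, and 2.98% is not a matched background for them. S phase genes summed to 2099 to 4046 CPM in double transgenic mice and 1402 to 1611 CPM in Eµ-PRMT5 mice 1 to 3, and G2/M genes to 711.5 to 1544 CPM and 199.5 to 631.1 CPM. The double transgenic mice thus lay above Eµ-PRMT5 mice 1 to 3 and below mouse 4 for both sums, as they did for Ccne1 and Cdkn2c.

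Among markers of other cells, 3 of 6 T cell markers and 2 of 4 plasma cell markers were lower in double transgenic mice at an unadjusted p under 0.05 by edgeR, and 1 of 9 neutrophil markers, Mpo, was higher, against 1.21% of all genes lower and 0.957% higher. The T cell markers did not move together. Cd3d, Cd3e and Il7r were lower, whereas Cd2 and Lck had log2 fold changes of 0.75 and 0.49, and without Eµ-PRMT5 mouse 3 Il7r alone was lower at this threshold. With 1 mouse left out, 1 to 3 T cell and 1 to 2 plasma cell markers were lower and 0 to 4 neutrophil markers were higher at it, the 4 in the absence of Eµ-PRMT5 mouse 4. Summed T cell markers overlapped, at 435.0 to 947.3 CPM in Eµ-PRMT5 and 704.6 to 1233 CPM in double transgenic mice. The part of these cells in the G1 values was not tested. Summed plasma cell markers were 405.6 to 2697 CPM in double transgenic mice and 587.2 to 5603 CPM in Eµ-PRMT5 mice. The highest sum was in Eµ-PRMT5 mouse 1, the mouse with the most Cdkn1b.

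The single Eµ-TCL1 mouse was placed against the spread of the replicated genotypes, which is not a comparison of genotypes. It had less D-type cyclin transcript than any other mouse. Ccnd2 was 126 CPM and Ccnd3 55.4 CPM, the lowest of 8 mice for both genes. Their exact Poisson intervals at 95% (115 to 138 CPM and 48.1 to 63.5 CPM, counting error only) did not reach the next mouse. Ccne2, at 5.95 CPM, was also the lowest, with 6.33 CPM in the next mouse, inside its interval of 3.73 to 9.004 CPM. This mouse was thus the lowest for 3 of 10 members and the highest for 0, against 14.2% and 21.3% of all genes tested.

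Against Eµ-PRMT5 mice, the Eµ-TCL1 mouse differed by -1.43 on the log2 scale for Ccnd2 (standard error 0.58, unadjusted p = 0.0307 and adjusted p = 0.709 by edgeR) and -1.37 for Ccnd3 (standard error 0.69). Ccnd2 was the 1 member lower at an unadjusted p under 0.05, as were 1.96% of all genes, while 4.82% were higher. Its unadjusted p by edgeR was above the threshold without Eµ-PRMT5 mouse 2 (unadjusted p = 0.0617, adjusted p = 0.858), with scaling by library size alone (unadjusted p = 0.0633, adjusted p = 0.708) and with only these 2 genotypes in the fit (unadjusted p = 0.0576, adjusted p = 0.951). Against Eµ-PRMT5/TCL1 mice, Ccnd2 differed by -2.32 (standard error 0.63, unadjusted p = 0.00315 and adjusted p = 0.778 by edgeR) and Ccnd3 by -1.68 (standard error 0.72, unadjusted p = 0.0371 by edgeR). Without Eµ-PRMT5/TCL1 mouse 1 the Ccnd3 difference was -0.97 (unadjusted p = 0.125 and adjusted p = 0.938 by edgeR). Its unadjusted p was also above 0.05 by edgeR without Eµ-PRMT5 mouse 3 (unadjusted p = 0.0510, adjusted p = 0.541) and with scaling by library size alone (unadjusted p = 0.0573, adjusted p = 0.689). With all mice these were 2 of 10 members lower, against 1.75% of all genes lower and 4.33% higher. By DESeq2 the adjusted p of Ccnd2 in this last comparison was 0.0369. By edgeR 0 genes passed the adjusted p in either comparison, and by DESeq2 18 and 16 genes did.

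For the remaining members the Eµ-TCL1 mouse fell between the lowest and the highest of the other 7 mice. They were 17.6 CPM for Ccne1, 141 CPM for Cdk4, 26.5 CPM for Cdk6, 17.0 CPM for Cdkn1b, 4.06 CPM for Cdkn2c, 38.4 CPM for Rb1 and 4.06 CPM for Ccnd1. The median log2 fold change over the members was -1.29 against Eµ-PRMT5 mice and -1.37 against double transgenic mice, where all genes tested had medians of -0.04 and 0.07. The first was -0.25 without Eµ-PRMT5 mouse 4, with 7 of 10 members below 0. Both comparisons use the same Eµ-TCL1 library, the one of lowest depth. All 9 neutrophil, 5 erythroid and 4 macrophage markers tested were below 0 on the log2 scale in both as well (593.6, 23.79 and 154.6 CPM in sum). Without Eµ-PRMT5 mouse 4 this held for 8, 4 and 3 of them against Eµ-PRMT5 mice. Of 4 plasma cell markers, 2 were above 0 against Eµ-PRMT5 mice and 3 against double transgenic mice. Among them Prdm1, at 209.8 CPM, was the highest of 8 mice, with log2 fold changes of 1.82 and 2.32. The part of such cells was not tested. All 18 S phase genes were also below 0 in both, but without Eµ-PRMT5 mouse 4 this held for 10 of 18 against Eµ-PRMT5 mice. The mean log2 CPM of S phase genes was 5.56 in the Eµ-TCL1 mouse, within the 5.26 to 5.96 of Eµ-PRMT5 mice 1 to 3. Their summed CPM placed it otherwise, at 1190 CPM, the lowest of 8 mice, with 1402 to 1611 CPM in Eµ-PRMT5 mice 1 to 3. Scaling by library size alone moved the medians of all genes to 0.21 and 0.30, and Ccnd2 and Ccnd3 remained the lowest of 8 mice under it, while Ccne2 did not.

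Ccne1 rose and fell with S phase genes from mouse to mouse. This relation was examined for each member after the values by mouse had been seen, with the mean log2 CPM of 18 S phase genes as the measure and 10 relations in the family. Ccne1 followed it most closely over the 8 mice (Pearson's r = 0.963, exact permutation p = 9.92e-05, adjusted 0.000992). Spearman's rho was 0.952 (exact permutation p = 0.00114, adjusted 0.0114). Eµ-PRMT5 mouse 4 and mouse 3 of the double transgenic group lay farthest from the median of this measure, and with both left out r was 0.942 (exact permutation p = 0.00278). Ccne1 was the 1 member past an adjusted p of 0.05 by rank.

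For Ccne2, r was 0.851 (exact permutation p = 0.00764, adjusted 0.0382) and rho 0.690 (exact permutation p = 0.0694, adjusted 0.139), and r was 0.744 (exact permutation p = 0.0903) without the 2 mice. For Cdk4, r was 0.797 (exact permutation p = 0.0179, adjusted 0.0472) and rho 0.619 (exact permutation p = 0.115, adjusted 0.192), and r was 0.403 (exact permutation p = 0.417) without the 2 mice. For Cdkn2c, r was 0.795 (exact permutation p = 0.0189, adjusted 0.0472) and rho 0.714 (exact permutation p = 0.0576, adjusted 0.139), and r was 0.686 (exact permutation p = 0.140) without them. Those 3 relations no longer passed 0.05 once the 2 mice were left out. The 2 were chosen as farthest on the S phase measure, so leaving them out narrows its range and leaves 6 mice. Both can lower r and raise p in advance, so a fall does not show that a relation rests on these mice.

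Cdkn1b went the other way, with r = -0.725 (exact permutation p = 0.0373, adjusted 0.0741) and rho = -0.738 (exact permutation p = 0.0458, adjusted 0.139), and r was -0.573 (exact permutation p = 0.243) without the 2 mice. Cdk6 had r = 0.723 (exact permutation p = 0.0445, adjusted 0.0741) and rho = 0.690 (exact permutation p = 0.0694, adjusted 0.139), with r = 0.877 (exact permutation p = 0.0181) without them. For the D-type cyclins and Rb1 the adjusted p was 0.238 or more in every case by exact permutation, with r between -0.539 (Rb1) and 0.342 (Ccnd3) and rho between -0.214 (Rb1) and 0.333. Of all other genes tested, 5.99% had a positive and 4.97% a negative rank correlation at an exact unadjusted p under 0.05, and 1 of 10 members had each, which is near the background. No such share was computed for Pearson's r, or for a rho as high as that of Ccne1. Groups of 4, 3 and 1 mice are too few for a value within a genotype, and the points share their library depth and scaling.

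**Figure D4:**
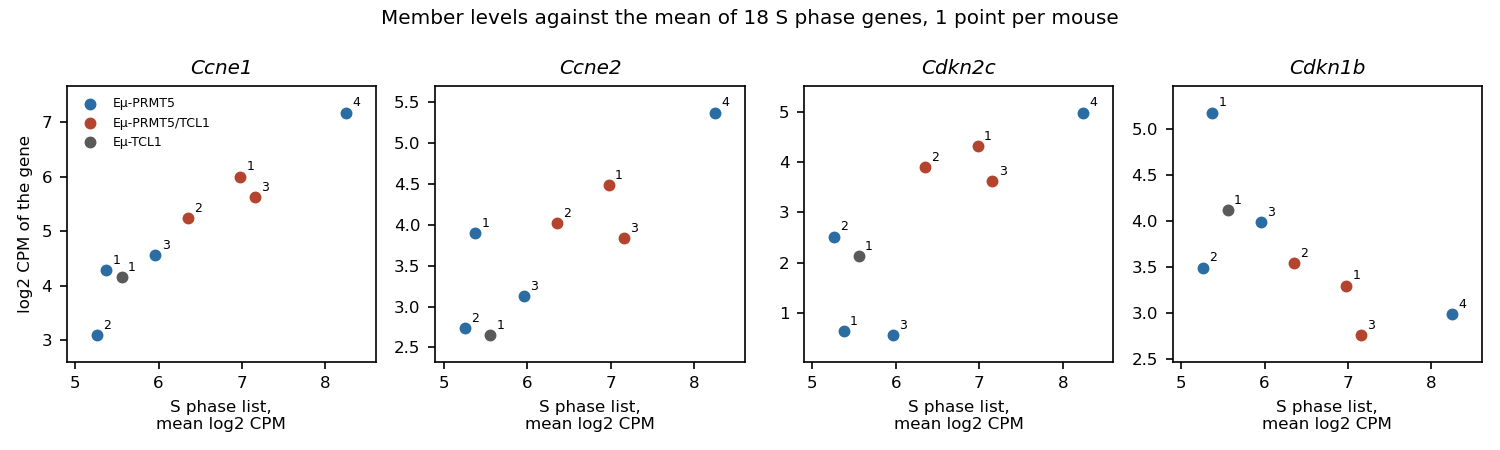
Each point is 1 mouse, with the mean log2 CPM of 18 S phase genes on the horizontal axis and the log2 CPM of the named gene on the vertical axis, coloured by genotype. Ccne1 rises along the axis across all 8 mice (rho 0.952), Ccne2 and Cdkn2c rise with more scatter, and Cdkn1b falls (rho -0.738).

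The genes with the most similar pattern to each member were found by the root-mean-square difference in log2 CPM, centred on its mean over the 8 mice. For Ccnd2 the nearest were Pigr (0.26), Pdzk1 (0.34) and Rbm3os (0.36), and for Ccnd3 Emp3 (0.28), Pilrb1 (0.30) and S100a10 (0.31). For Ccne1 they were Hist1h2ap (0.25), Shcbp1 (0.26) and Sgol1 (0.26), and for Ccne2 Dsn1 (0.21), Smc2 (0.23) and H2afz (0.24). Cdk4 had the closest neighbours of the 10 members, with Bop1 (0.14), Gcsh (0.15) and Eif3d (0.16). Cdkn2c had the most distant, with 4930579G24Rik (0.56), Lmnb1 (0.65) and Mybl2 (0.66). For Cdk6 the nearest were Samhd1, Atox1 and Anxa5, for Cdkn1b Fbxo33, Baz2b and Sltm, for Rb1 Rufy1, Slc25a53 and Syk, and for Ccnd1 Acsl3, Lag3 and Hk1os. These are descriptions over 8 libraries.

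Some of the counts are uncertain by position. Exons of Ccnd1, Ccnd2, Ccnd3, Ccne2, Cdk4, Cdk6 and Rb1 overlap a gene on the other strand in the annotation, over 361 bases for Ccnd3 (with Bysl) to 1100 of 4709 exon bases for Ccnd1 (with LTO1). For Ccnd2 the overlap is 740 of 9409 bases, with a pair of antisense genes, and for Cdk4 641 of 3249 bases, with Tspan31. Whether the counting used strand is not given in the sources used here, so reads of such partners cannot be told apart. Ccne1, Cdkn1b and Cdkn2c have no such overlap.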

How the data were processed

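The matrix deposited by the authors holds raw counts for each gene symbol and mouse (8 mice), neither normalized nor pooled. The methods describe SMARTer preamplification, Nextera XT libraries and the CLEAR workflow, while the labels describe TruSeq stranded libraries. The submitters' processing notes name featureCounts, GRCm38 and DESeq2 1.20.0. The methods name STAR and an Ensembl annotation for libraries made with the TruSeq kit, and whether that holds for these counts is not given in the sources used here, nor are the strand setting and the meaning of NA. The 14072 symbols with a value in every library were kept, and 26 symbols that read as dates stayed as written. Each library held 3356297 to 10252426 counts, so counting error is small except for genes of a few counts, and intervals cover counting error only.

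Samples were grouped by labelled genotype. One model with 3 genotype means was fitted in edgeR 4.0.16 (R 4.3.3; TMM, filterByExpr, quasi-likelihood test, Benjamini-Hochberg adjustment over 13173 genes). The lone Eµ-TCL1 mouse was assumed to vary like the other groups. Mice are separate animals. Single members were also tested by exact permutation (scipy 1.17.1, Python 3.11.15), on log2 CPM with a prior count of 2. RPKM used exon lengths and positions from GENCODE vM21 (GRCm38). In simulated data with 200 changed genes, edgeR called 40% of genes with a log2 change of 2 and 86.5% of genes with a log2 change of 3 in Eµ-PRMT5/TCL1 against Eµ-PRMT5 mice (13058 and 13071 genes). For the Eµ-TCL1 mouse it called 4% and 32% against Eµ-PRMT5 mice (13037 and 13051 genes) and 0% and 26.5% against double transgenic mice (13047 and 13041 genes).

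The rule for naming genes covered all members, from each other list the 3 genes of smallest unadjusted p, and the 3 nearest patterns of each member. Some of the list genes it covered are not printed, and Cks1b, Cd2 and Lck are printed in addition to it. Members and lists were chosen with earlier results of these data known. Alternatives were DESeq2 1.42.0, NA counted as 0, upper-quartile scaling, scaling by library size alone, a filter of 10 counts in every sample, no filter, only the groups compared, CPM in place of RPKM, a replicate block and each replicate left out. Gene lists were summarised with each replicate left out as an addition made after seeing the data. Promoter windows are from RefSeq (GRCm38.p6).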

Additional observations from a re-analysis of the deposited data

Results flagged for a closer look

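Within the 4 Eµ-PRMT5 mice, 11 measures were examined for a mouse far from the others by Dixon's ratio, and 2 passed its critical value at 95%. Chance passes about 1 in 20 groups, or 0.55 of 11, where values in a group are normally distributed. For single genes the ratio was taken on CPM and not on log2 CPM, where none was computed. The 2 flags therefore belong to the CPM scale, and the chance rate may not hold for skewed values. Both were in Eµ-PRMT5 mouse 4. Ccne1 was 144.3 CPM there and 8.23 to 23.2 CPM in the other 3 mice. Cdkn2c was 31.24 CPM there and 1.14 to 5.38 CPM in the other 3. The same library had the highest S phase, G2/M and erythroid sums and the lowest B cell marker sum of the 8 mice, and their part in both values was not tested.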

How the results depend on the processing

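Of 444 recomputed member values, 410 kept their direction and their side of an adjusted p of 0.05, 33 changed sign and 1 newly passed. The one that passed was Ccnd2 in the Eµ-TCL1 mouse against Eµ-PRMT5/TCL1 mice by DESeq2 (log2 fold change -2.41, adjusted p = 0.0369, where its alternatives ranged to 0.976). The cause of the changes below was not tested.

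In Eµ-PRMT5/TCL1 against Eµ-PRMT5 mice, DESeq2 called 4 genes at an adjusted p under 0.05, and edgeR called 0 under every alternative. Leaving out 1 mouse put 0 to 3 members at an unadjusted p under 0.05. The log2 fold change of Ccnd2 stayed above 0 in all 17 alternatives and its unadjusted p was under 0.05 in 15. With 1 mouse left out, log2 fold changes ran from -0.40 to 0.57 (Ccnd3), -0.31 to 1.58 (Ccne1), -0.31 to 0.82 (Ccne2), -0.39 to 0.46 (Cdk4), -0.086 to 0.996 (Cdk6) and -0.33 to 0.43 (Rb1). Ccne1 was -0.026 with NA counted as 0, and -0.23, -0.31, -0.19 and -0.17 without Eµ-PRMT5 mouse 1, 2 or 3 or Eµ-PRMT5/TCL1 mouse 1. Ccne2 was 0.091 with upper-quartile scaling, 0.084 with scaling by library size alone, 0.024 with a filter of 10 counts in every sample, and 0.027 and 0.10 without Eµ-PRMT5/TCL1 mouse 2 or 3. Without Eµ-PRMT5 mouse 4, Rb1 was -0.15.

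Replicate numbers did not pair the mice, which were different animals (correlations of deviations 0.03, 0.12 and 0.18). With the replicate number as a block over mice 1 to 3 of each genotype, 4 members (Ccnd2, Ccne1, Cdk6 and Cdkn2c) had an unadjusted p under 0.05, and 3 in the same 6 mice without the block. Under the block Ccne2 was 0.88, Cdk4 0.54 and Rb1 -0.25, and in the same mice unblocked 0.82, 0.45 and -0.15. In both, 0 genes passed the adjusted p.

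For the Eµ-TCL1 mouse against Eµ-PRMT5 mice, DESeq2 called 18 genes. Members at an unadjusted p under 0.05 numbered 2 by DESeq2, 0 with library size only, 2 with NA counted as 0, and 0 to 2 with 1 mouse left out. With only the 2 groups compared the number was 1 as with all groups, but it was Ccnd3 and not Ccnd2. With 1 mouse left out, log2 fold changes ran from -1.87 to 0.060 (Ccne1), -1.78 to 0.62 (Cdkn2c), -0.28 to 0.49 (Cdkn1b) and -0.059 to 0.40 (Rb1). The signs of Ccne1, Cdkn2c and Rb1 changed without Eµ-PRMT5 mouse 4. Cdkn1b was 0.14 with upper-quartile scaling, 0.23 with library size only and 0.49 without Eµ-PRMT5 mouse 1, and Rb1 was -0.045 with NA counted as 0. Against Eµ-PRMT5/TCL1 mice, DESeq2 called 16 genes. Members at an unadjusted p under 0.05 numbered 1 with library size only, 6 with only the 2 groups compared, and 1 to 2 with 1 mouse left out. Rb1 was -0.21 with NA counted as 0, -0.033 with only the 2 groups, and ran from -0.20 to 0.53 with 1 mouse left out (-0.036 without Eµ-PRMT5 mouse 1).

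In CPM in place of RPKM, the Ccnd2 share of D-type cyclins in the Eµ-TCL1 mouse was 67.98%. With 1 mouse left out it was 63.7% to 71.3% in Eµ-PRMT5 and 71.3% to 83.9% in Eµ-PRMT5/TCL1 mice. Depth limits Ccnd1 in all libraries and Cdkn2c in Eµ-PRMT5 mice 1 and 3.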
